A study of Canis lupus familiaris with 16 samples.

Results

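The nuclear genes for the subunits of the respiratory chain and the ATP synthase were examined in canine hepatocellular carcinoma (HCC) cell lines treated with a kinase inhibitor. They were chosen by symbol: those of the form NDUFA, NDUFB, NDUFC, NDUFS or NDUFV with a number, SDHA to SDHD, UQCR, CYC1, COX4 to COX8, and ATP5, at a mean of at least 1 CPM (counts scaled to a common library size) over 16 libraries. Of 39543 symbols, 73 had such a name and 68 reached that level. The 68 members comprise 36 genes of complex I, 4 of complex II, 8 of complex III, 6 of complex IV and 14 of complex V. NDUFA4, despite its name, is counted with complex IV, of which it is now taken to be a subunit. At the threshold, the lowest member was NDUFA3 with a mean of 26.6 CPM and the highest symbol left out was COX7A1 with 0.906 CPM. The other 4 symbols left out were COX4I2 at 0.127 CPM and COX6A2, COX7B2 and ATP5ME at 0. COX6A1, COX6B1, COX6C, COX7A2, COX7B, COX7C, UQCRB and the ATP5P genes other than ATP5PO were not analysed here, so the account of complexes III, IV and V covers only some of their subunits.

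Complexes I (NADH dehydrogenase) and II (succinate dehydrogenase) pass electrons to ubiquinone, complex III passes them on to cytochrome c, and complex IV to oxygen. Complexes I, III and IV pump protons, and the gradient drives ATP synthesis by complex V. The genes of complex II are all nuclear, while the other complexes are built from products of both the nuclear and the mitochondrial genome, and the liver is among the tissues rich in these enzymes.

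Libraries came from 4 canine lines derived from liver tumours: KU-cHCC-001 and KU-cHCC-002, and also KU-cHCC-004 and then KU-cHCC-005. For 24 h each line received sorafenib at 30 µM or DMSO (dimethyl sulfoxide) as its vehicle, or else toceranib at 15 µM or DPBS (a phosphate-buffered saline) as its vehicle. Sorafenib inhibits several kinases and toceranib receptor tyrosine kinases such as KIT. Each line gave 1 library per treatment, 16 in all, with 12008366 to 21943572 counts. By the labels the replicates of a treatment are therefore 4 different lines, with no repeat within a line, and p-values measure the spread between these libraries. Each drug was set against DMSO of the same line, so in that comparison the effect of toceranib and the difference between DPBS and DMSO cannot be told apart.

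Hepatocyte markers were uneven: ALB reached at most 0.416 CPM in any library (on total counts, as for every gene that is not a member), and 3 of 8 hepatocyte markers (APOB, HNF4A and AFP) reached 1 CPM in a DMSO library. With DMSO, APOB stood at 0.469 to 44.7 CPM and HNF4A at 71.2 CPM in KU-cHCC-002. The 8 markers summed to 23.2 to 83.3 CPM with DMSO. KRT7, a keratin of bile duct epithelium, stood at 324, 6845, 4862 and 5404 CPM with DMSO in the 4 lines in the order named above, which is the order of every list of 4 values, and the mesenchymal filament gene VIM at 7534, 1847, 1189 and 1393 CPM. Each line was marked by the genes at least 4-fold higher in its DMSO library than in every other. Of the 4 DPBS libraries 3 did not carry the genes of the line on their label: the 16 genes that mark KU-cHCC-002 had a median log2 CPM of 4.80 in the library labelled KU-cHCC-001, 4.84 in that labelled KU-cHCC-004 and 1.75 in that labelled KU-cHCC-002. The 760 genes that mark KU-cHCC-001 stood at 4.26 to 4.53 in its DMSO, sorafenib and toceranib libraries and at 0.15 in the DPBS library of that label. The genes that mark KU-cHCC-005 stood at 2.61 in the DPBS library of its own label and at 2.88 in that labelled KU-cHCC-002. The DPBS libraries thus formed 2 pairs, KU-cHCC-001 with KU-cHCC-004 and KU-cHCC-002 with KU-cHCC-005 by label. Within these pairs the spread of counts was 2.22 and 2.11 times that of sampling alone (median over genes of at least 20 counts in the pair), against 10.4 to 108.7 times for any other pair of libraries of 1 treatment. The DPBS libraries were kept out of the main comparisons. In the toceranib library of KU-cHCC-005 the 36 genes that mark this line had a median log2 CPM of 2.86, against 3.83 with sorafenib. Stromal transcripts were present in the toceranib libraries of KU-cHCC-004 and KU-cHCC-005 (COL3A1 at 6.32 and 50.8 CPM, against 0 in every DMSO and sorafenib library), and with DPBS in those of the labels KU-cHCC-002, at 73.9 CPM, and KU-cHCC-005, at 81.7 CPM. All 8 mesenchymal markers reached 1 CPM in a toceranib library and in a DPBS library, against 5 of 8 with DMSO. Their summed level ran from 1895 to 9689 CPM with toceranib, 2058 to 3426 CPM with DPBS and 1643 to 14622 CPM with DMSO. The toceranib library of KU-cHCC-001 held CD74 at 346.5 CPM, against 0.261 to 3.49 CPM with DMSO, and its 4 leukocyte markers summed to 359.7 CPM with PTPRC at 0. Whether these transcripts bear on the toceranib and DPBS values below was not tested.

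Sorafenib was followed by lower levels of a subset of these genes. In edgeR's quasi-likelihood test with the line as a block, 10 of the 68 members (14.7%) were lower than with DMSO at an adjusted p under 0.05 and 0 were higher. Over all 14938 genes tested, 10.1% were lower and 9.59% higher, 1502 against 1433 genes. With libraries scaled by their total counts alone the genes called over the whole table were 1185 lower and 1825 higher, and 8 members were lower (11.8%, against 7.93% of all genes). The fitted log2 fold change was below 0 for 54 members (79.4%, against 51.7% of all genes), with a median of -0.24 over the members and of -0.02 over all genes. At an unadjusted p under 0.05 in edgeR there were 20 of the 68 members, against 5153 of all 14938 genes. DESeq2 called 15 members lower (22.1%, against 12.5% of all genes) and 0 higher (12.5% of all genes). The ratio to DMSO lay below 1 in 4 of 4 lines for 34 members (50%, against 25.5% of all genes) and above 1 in 4 of 4 lines for 3 (4.41%, against 25.3%), which were NDUFA7, NDUFB10 and NDUFV2. Ribosomal protein genes came near the members in this: 42.5% of the 73 cytosolic and 42.1% of the 76 mitochondrial ones lay below 1 in 4 of 4 lines. Above 1 in 4 of 4 lines were 11% and 21.1% of them. The plot of fitted changes shows the lower values to be spread over complexes I, III and V, with SDHA in complex II. In complex II 2 of 4 members were above 0, and the changes in complex IV ran from -0.34 to 0.04.

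**Figure D1:**
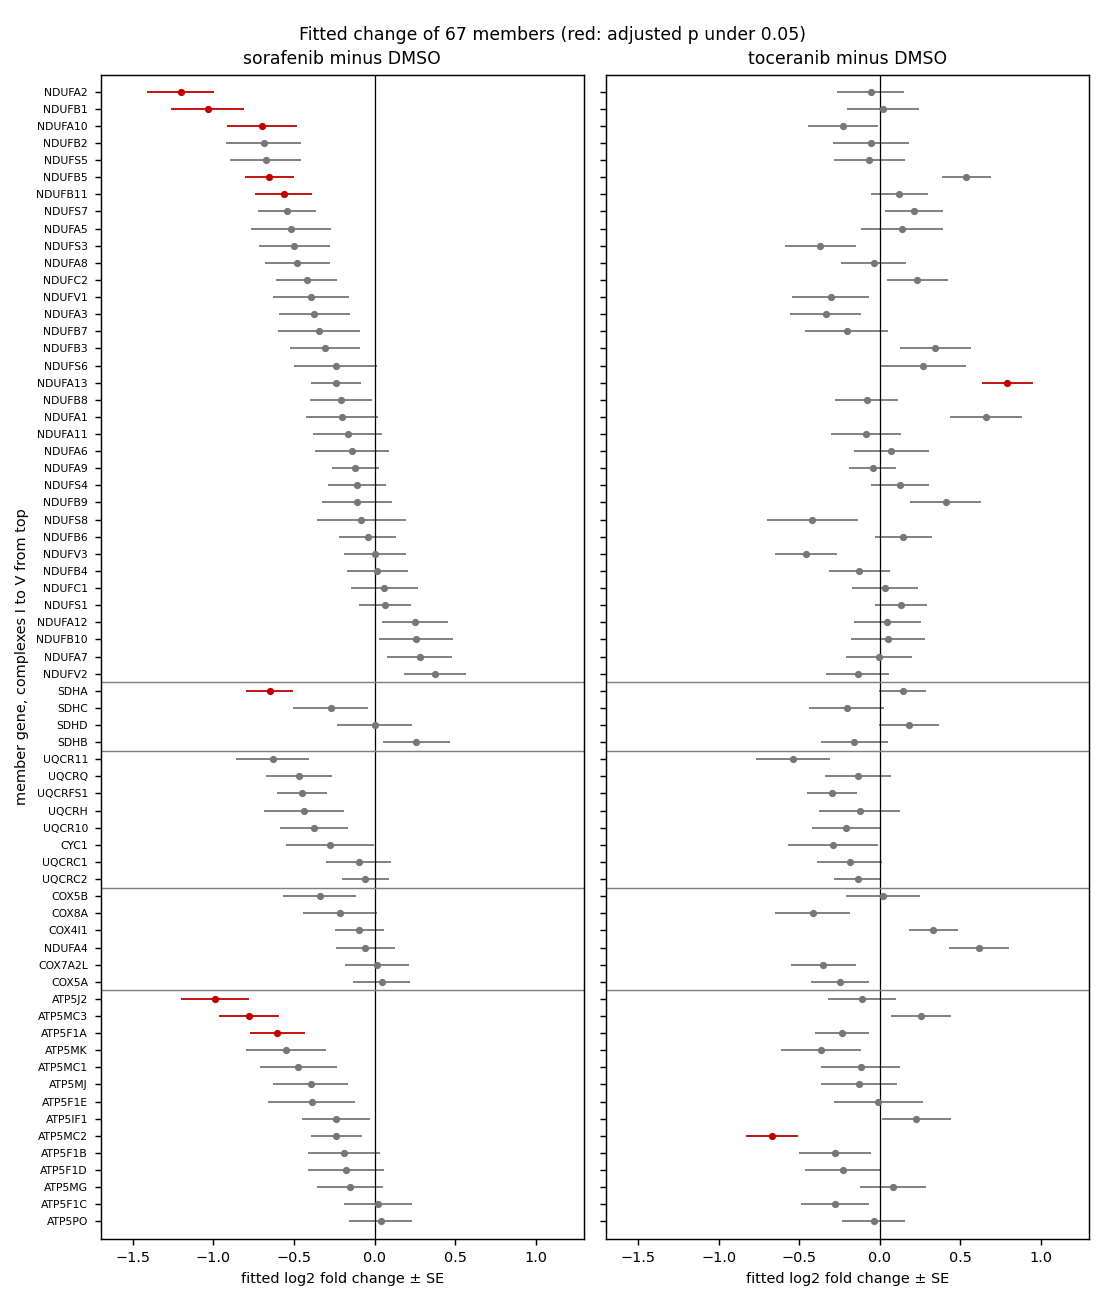
Fitted log2 fold changes (points) with their standard errors (bars) for sorafenib against DMSO (left) and toceranib against DMSO (right), 1 row for each of 67 members, ordered by complex and then by the sorafenib change; red marks an adjusted p under 0.05 in edgeR. The 9 red points on the left all lie below 0, and on the right NDUFA13 is the 1 red point above 0 and ATP5MC2 the 1 below.

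The size of the difference varied between the lines. With 1 library per line and treatment, a dependence on the line was not tested. The median log2 ratio of sorafenib to DMSO over the 68 members was -0.43, -0.35, -0.20 and -0.07, lowest in KU-cHCC-001 and nearest 0 in KU-cHCC-005. Below 1 were 64, 54, 49 and 36 of the 68 ratios. Members ranked alike from line to line all the same: Pearson's r of the 68 log2 ratios was 0.72 to 0.85 between pairs of lines, as a description across genes measured in the same libraries. The line with the smallest median, KU-cHCC-005, thus still had its lowest ratios among the members that were lowest elsewhere, as the map of ratios by line shows.

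**Figure D2:**
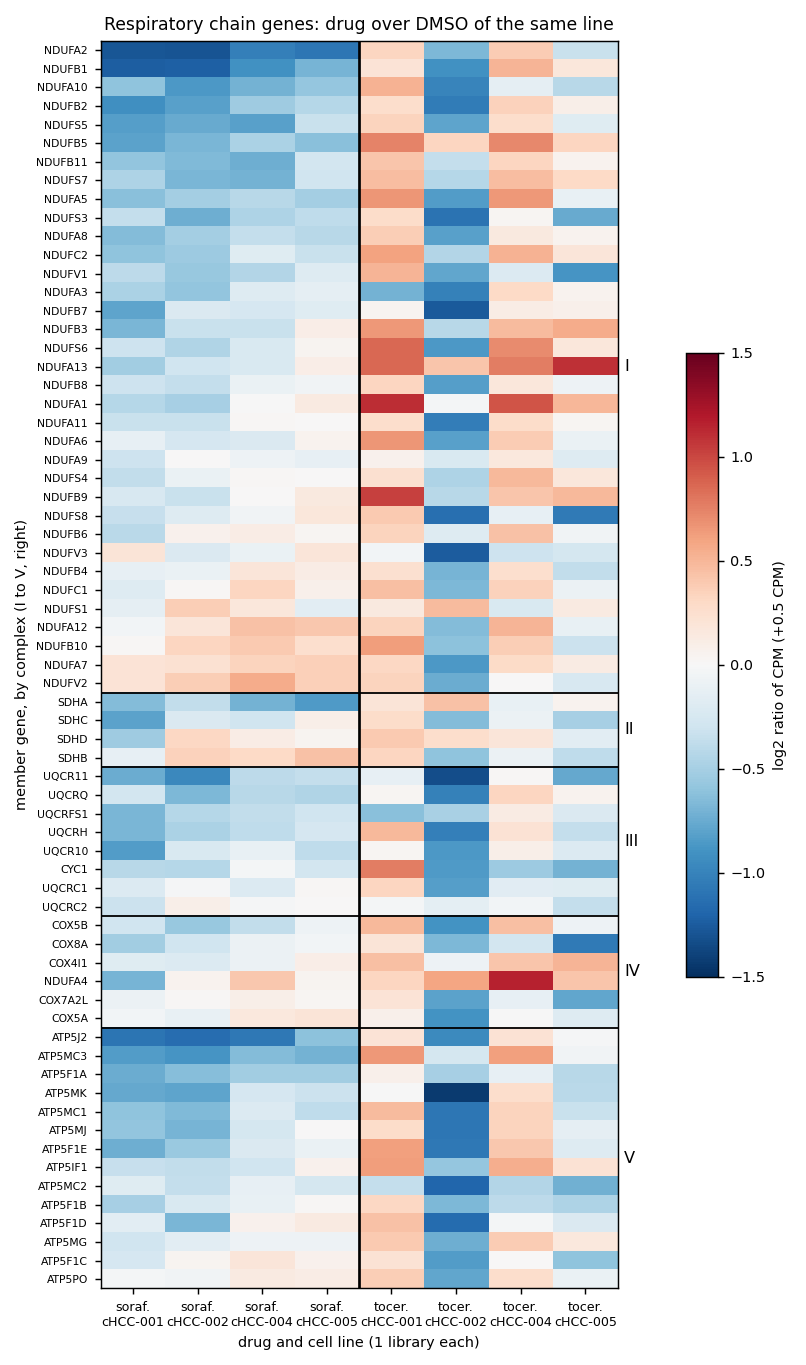
Log2 ratio of CPM (0.5 CPM added) of each drug to DMSO of the same line, 1 row for each of 67 members and 1 column per line and drug, blue below 0 and red above. The first rows of complexes I and V are blue in all 4 sorafenib columns; with toceranib, counted over all members, 62 of 68 are below 0 in KU-cHCC-002 and 7 of 68 in KU-cHCC-001.

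Complex I held 6 of the 10 genes called, of which 5 are described. NDUFA2, an accessory subunit of the arm that takes up NADH, had 27.8, 39.4, 40.0 and 56.7 CPM with DMSO and 11.1, 15.7, 19.3 and 26.4 CPM with sorafenib in the 4 lines. Every sorafenib value lay below every DMSO value. NDUFA2 fell by 1.20 ± 0.21 (SE) on the log2 scale, the lowest fitted change of any member, with an adjusted p of 0.00420 in edgeR. NDUFB1, an accessory subunit of the membrane arm, had 46.7, 65.4, 46.9 and 68.6 CPM with DMSO and 19.6, 27.7, 24.7 and 42.3 CPM with sorafenib. Its groups did not overlap either, although KU-cHCC-005 with sorafenib came close to KU-cHCC-001 with DMSO. The log2 fold change of NDUFB1 was -1.04 ± 0.23 (SE), with an adjusted p of 0.0108 in edgeR.

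NDUFA10, an accessory subunit of the membrane arm, went from 97.7, 202, 167 and 162 CPM to 64.3, 111, 102 and 108 CPM, lower in each line with overlapping groups. NDUFB5 and NDUFB11 belong to the same arm. NDUFB5 had 42.5, 57.4, 48.7 and 66.4 CPM with DMSO and 24.1, 35.4, 35.0 and 42.7 CPM with sorafenib, and NDUFB11 45.9, 91.3, 77.4 and 78.7 CPM and 30.3, 57.3, 46.6 and 65.1 CPM. Both were lower in 4 of 4 lines, and for both KU-cHCC-001 was the lowest line with either treatment. Log2 fold changes were -0.70 ± 0.22 (SE) for NDUFA10, -0.65 ± 0.15 for NDUFB5 and -0.56 ± 0.18 for NDUFB11, with adjusted p of 0.0438, 0.0139 and 0.0437 in edgeR.

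The remaining 30 genes of complex I did not pass the test with sorafenib. NDUFS1 and NDUFV1 are core subunits of the NADH arm, the first carrying iron-sulphur clusters and the second binding NADH. NDUFS1 had 142, 97.6, 156 and 120.3 CPM with DMSO and 129, 126, 175 and 108 CPM with sorafenib, higher in 2 lines and lower in the other 2 (log2 fold change 0.06 ± 0.16, SE). NDUFV1 had 121, 355, 214 and 249 CPM and 92.7, 239, 158 and 218 CPM, lower in each line but with groups that overlapped widely (log2 fold change -0.39 ± 0.24, adjusted p 0.262 in edgeR). The highest fitted change of any member belonged to NDUFV2, another core subunit of that arm, at 0.38 ± 0.19 (adjusted p 0.191 in edgeR). Over the complex, 28 of 36 members were below 0, with a median of -0.24. The summed CPM of complex I was 2584, 4224, 3216 and 3698 with DMSO and 2029, 3399, 2874 and 3472 with sorafenib, lower in each line by a log2 ratio between -0.35 and -0.09.

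**Figure D3:**
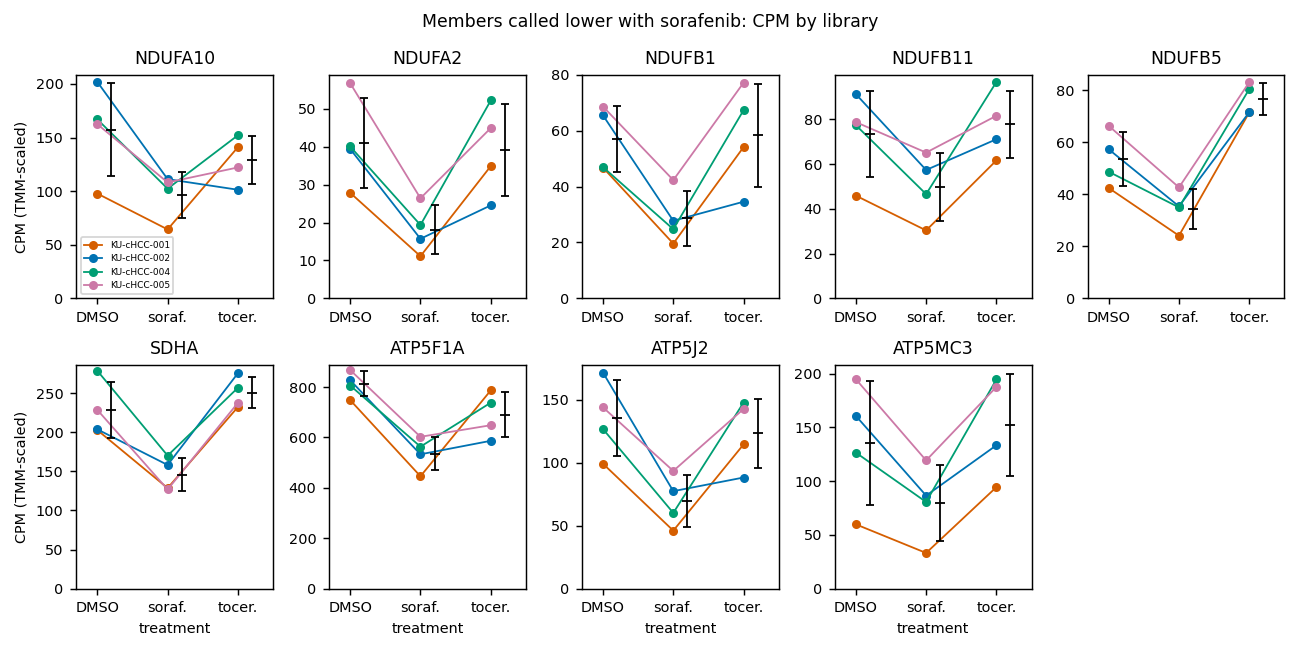
CPM of 9 of the 10 members called lower with sorafenib, by treatment; coloured points joined by lines are the 4 cell lines (1 library each), and black bars are the mean ± SD of a treatment. Each line falls from DMSO to sorafenib in all 9 panels, while the toceranib points overlap those of DMSO in 8 panels and lie above them all for NDUFB5. The toceranib points of KU-cHCC-002 are often the lowest of the toceranib points.

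In complex II, the catalytic subunit SDHA, which binds succinate, was lower with sorafenib. SDHA had 203, 204, 279 and 229 CPM with DMSO and 129, 158, 170.3 and 127 CPM with sorafenib, with no overlap between the groups. It fell by 0.65 ± 0.15 (SE) on the log2 scale, with an adjusted p of 0.0121 in edgeR. SDHB, the iron-sulphur subunit, had 87.6, 104, 105 and 114 CPM and 80.1, 132, 129 and 154 CPM, higher in 3 lines and lower in KU-cHCC-001. The membrane anchor SDHC had 98.5, 142, 110.5 and 128 CPM with DMSO and 56.4, 122, 90.0 and 137 CPM with sorafenib, and the anchor SDHD 73.4, 63.6, 77.5 and 67.8 CPM and 50.5, 79.1, 83.6 and 69.8 CPM. For both anchors the ratio to DMSO was lowest in KU-cHCC-001, and the groups overlapped. Fitted log2 fold changes were 0.26 ± 0.21 (SE) for SDHB, -0.27 ± 0.23 for SDHC and 0.00 ± 0.23 for SDHD, none called. The mean log2 ratio of the summed CPM of complex II, -0.26 over the lines, became -0.025 when SDHA was left out.

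All 8 members of complex III were below 0 with sorafenib, with a median of -0.41. In edgeR 0 of them were called (3 at an unadjusted p under 0.05), and DESeq2 called 2 lower. UQCRFS1, the Rieske iron-sulphur subunit, had 127, 180.1, 169 and 179 CPM with DMSO and 78.6, 134, 131 and 146 CPM with sorafenib. It was lower in each line, with groups that overlapped, at a log2 fold change of -0.45 ± 0.16 (SE) and an adjusted p of 0.0627 in edgeR. CYC1, cytochrome c1, had 200.3, 283, 260.3 and 258 CPM with DMSO and 149.5, 210.3, 255 and 213 CPM with sorafenib, and the core protein gene UQCRC1 269, 329, 334 and 255 CPM and 233, 324, 289.9 and 258 CPM. For these 2 genes some lines hardly differed between treatments, and log2 fold changes were -0.28 ± 0.27 and -0.10 ± 0.20 (SE). The lowest change in the complex was that of the small subunit gene UQCR11, -0.63 ± 0.23 (adjusted p 0.0713 in edgeR).

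Complex IV had the median nearest 0 of the 5 complexes. Of its 6 members 0 were called with sorafenib in edgeR or in DESeq2, and 0 had an unadjusted p under 0.05. In the fitted changes 4 were below 0 and the median was -0.08, with log2 fold changes between -0.34 (COX5B) and 0.04 (COX5A). COX4I1, the ubiquitous form of subunit IV, had 210.2, 380.0, 311 and 281 CPM with DMSO and 185, 330.1, 292 and 302 CPM with sorafenib. COX5A had 218, 422, 233 and 224 CPM and 211, 389, 259.5 and 256 CPM, and COX7A2L, a factor in joining complexes into supercomplexes rather than a core subunit, 50.2, 68.7, 86.4 and 116 CPM and 47.2, 69.7, 91.7 and 118 CPM. In all 3 genes each line had close to the same level with both treatments, and the lines spanned a wider range than the treatments. Of the isoform pairs, the tissue-restricted COX4I2, COX6A2, COX7A1 and COX7B2 lay at or below 0.906 CPM in the mean, and COX8A was measured at 124, 239.6, 169 and 293 CPM with DMSO. Of 6 muscle markers 1, TNNT2, reached 1 CPM in a DMSO library.

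Complex V held 3 of the genes called. ATP5F1A encodes the alpha subunit of the catalytic head and had 748, 827, 806 and 867 CPM with DMSO and 446, 533, 563 and 602 CPM with sorafenib. The 4 lines were close to each other and the groups did not overlap. It fell by 0.60 ± 0.17 (SE) on the log2 scale, with an adjusted p of 0.0300 in edgeR. ATP5F1B, the catalytic beta subunit of the same head, had 1084, 1457, 1413 and 1351 CPM with DMSO and 765, 1245, 1305 and 1372 CPM with sorafenib. The ratio to DMSO was lowest in KU-cHCC-001 and close to 1 in KU-cHCC-005, and the log2 fold change of -0.19 ± 0.22 (SE) was not called. The difference between the 2 genes was not tested.

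The other genes called in complex V belong to its membrane part. ATP5J2, the older symbol for subunit f, had 99.3, 172, 127 and 144 CPM with DMSO and 46.0, 77.4, 60.1 and 93.6 CPM with sorafenib, with no overlap and a log2 fold change of -0.99 ± 0.21 (SE, adjusted p 0.0102 in edgeR). Subunit c, which forms the rotor ring, is encoded by ATP5MC1, ATP5MC2 and ATP5MC3, whose mature products are the same protein. ATP5MC3 had 59.8, 161, 127 and 195 CPM with DMSO and 33.1, 86.5, 80.6 and 119 CPM with sorafenib, lower in each line over a range of levels wide enough for the groups to overlap. Its log2 fold change was -0.78 ± 0.19 (SE), with an adjusted p of 0.0156 in edgeR. The same fit gave -0.47 ± 0.24 for ATP5MC1 and -0.24 ± 0.16 for ATP5MC2, neither called. ATP5IF1, an inhibitor of the enzyme rather than a core subunit, had 122, 204, 156 and 174 CPM and 96.6, 158, 126 and 182 CPM, lower in 3 of 4 lines (log2 fold change -0.24 ± 0.21, not called). In the complex as a whole 12 of 14 members were below 0, with a median of -0.31, and the summed CPM went from 3483, 5213, 4276 and 4737 with DMSO to 2495, 3878, 3757 and 4315 with sorafenib.

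The number of members called with sorafenib differed between fits. A fit of the 8 DMSO and sorafenib libraries alone called 26 members lower (38.2%, against 18.2% of all genes), among them all 10 called above. It called 1 higher, NDUFV2 (1.47%, against 18.3%). By complex the 26 were 14 of complex I, 1 of complex II, 4 of complex III, 0 of complex IV and 7 of complex V. Without the toceranib library of KU-cHCC-002, 17 members were lower (25%, against 10.3%). Leaving out a line lowered the count to 9 without KU-cHCC-001 (13.2%, against 13.4% of all genes), 4 without KU-cHCC-002 (5.88%, against 3.05%), 1 without KU-cHCC-004 (1.47%, against 2.04%) and 2 without KU-cHCC-005 (2.94%, against 2.51%). The share of members was thus near that of all genes in 3 of these 4 fits. The edgeR fit without the line as a block called 0 (10 at an unadjusted p under 0.05), against 1.59% of all genes. NDUFA2 was called in each of the 4 fits that left out a line, with an adjusted p of 0.00453 to 0.0385 in edgeR, and NDUFB11 in none, at 0.0578 to 0.196. The other 8 genes lost the call in 1 to 3 of those fits, while their log2 fold changes stayed negative.

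The same fit was read for genes around the nuclear subunits. All 13 subunit genes of the mitochondrial genome were lower with sorafenib in 4 of 4 lines. The fit of the 8 DMSO and sorafenib libraries alone called all 13 lower, against 18.2% of all genes. In the 12-library fit 12 of the 13 were called lower (92.3%, against 10.1% of all genes), with a median log2 fold change of -1.82 (-1.79 without COX1). The exception, COX1, is listed at 0 in the toceranib library of KU-cHCC-004 and at 18013 to 42690 CPM in the other toceranib libraries, and it was at 9615 to 17850 CPM with DMSO and 1993 to 4652 CPM with sorafenib. CYTB, the mitochondrial cytochrome b of complex III, went from 2941, 1866, 2475 and 2590.4 CPM to 230.2, 181, 387 and 233 CPM (total-count scale), -3.40 ± 0.34 (SE) on the log2 scale. The 12 genes other than COX1 took 3.16 to 4.05% of counts with DMSO and 0.782 to 1.51% with sorafenib. Among nuclear genes, the 76 mitochondrial ribosomal protein genes had a median of -0.09 (8 lower and 2 higher) and the 73 cytosolic ones -0.12 (0 called in edgeR, 4 at an unadjusted p under 0.05). With the mitochondrial transcripts removed before scaling, 8 members were lower (11.8%, against 9.41% of all genes) and the median was -0.21. These lists were added with the data in view, and the plot of medians sets them beside the complexes line by line.

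**Figure D4:**
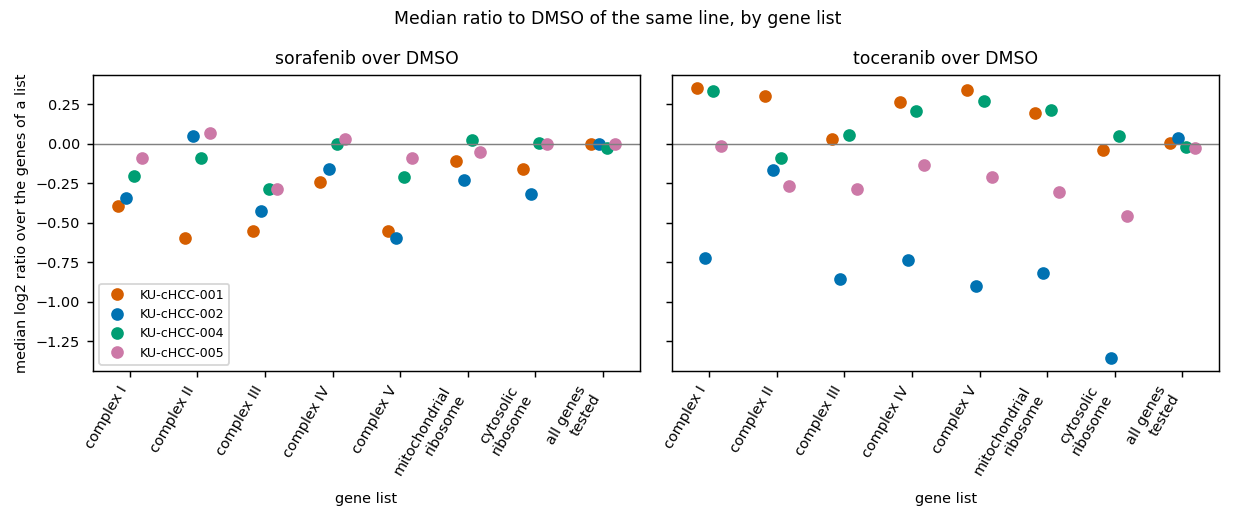
Median log2 ratio to DMSO of the same line over the genes of each list (points, 1 per line), for sorafenib (left) and toceranib (right). With sorafenib the points of complex III all lie below 0 and those of all genes at 0; with toceranib KU-cHCC-002 is the lowest in complexes I, III, IV and V and in both ribosomal lists, reaching -1.35 for the cytosolic ribosome.

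Assembly factors, carriers and regulators did not follow 1 direction with sorafenib. For the counts that follow, the shares over all genes were 10.1% lower and 9.59% higher in edgeR, and 12.5% in each direction in DESeq2. Of the 19 complex I assembly genes TIMMDC1 rose, by 0.65 ± 0.19 (SE) on the log2 scale with an adjusted p of 0.0326 in edgeR, and DESeq2 called 2 higher and 1 lower. In complex II, SDHAF1, which helps insert iron-sulphur clusters into SDHB, fell by 0.57 ± 0.17 (SE) on the log2 scale, 1 of 4 assembly genes. Of 20 complex IV assembly genes, COX20, which assists the maturation of the mitochondrially encoded subunit II, went from 29.0, 15.0, 12.6 and 23.0 CPM to 12.1, 5.27, 4.51 and 14.9 CPM, and COA7 from 28.6, 27.7, 18.5 and 31.0 CPM to 20.4, 15.6, 11.7 and 16.2 CPM. Both were lower in each line, with log2 fold changes of -1.27 ± 0.26 and -0.82 ± 0.21 (SE). Complex III assembly had 0 of 6 called in edgeR (1 at an unadjusted p under 0.05) and 1 lower in DESeq2, and complex V assembly 1 of 5, TMEM242, which was higher at 0.61 ± 0.15. Of 19 carrier genes and further subunits, COQ2 (0.59), COQ10B (0.74) and ETFDH (0.70), which serve ubiquinone synthesis or feed electrons to it, rose, and COQ8A, a kinase-like protein of ubiquinone synthesis, fell by 1.40 ± 0.21 (SE). Of 14 transcriptional and mitochondrial DNA regulators, among them PPARGC1A, NRF1, GABPA and ESRRA, 0 were called in edgeR (5 at an unadjusted p under 0.05) and 3 were higher in DESeq2.

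Toceranib was followed by few called differences from DMSO in these genes, and by opposite medians in different lines. NDUFA13 was higher and ATP5MC2 lower, 1.47% of the members in each direction, against 4.31% of all genes higher and 3.15% lower (644 and 471 genes, or 736 and 281 when scaled by total counts). The members' median log2 ratio was 0.33, -0.78, 0.27 and -0.13 in the 4 lines, so the fitted median of -0.07 averages lines that differ in sign. The cytosolic ribosomal protein genes had medians of -0.04, -1.35, 0.05 and -0.46 in the same 4 libraries, and the mitochondrial ones 0.19, -0.82, 0.21 and -0.31. In all 3 lists the lower pair was thus KU-cHCC-002 with KU-cHCC-005. The part of these libraries' own composition in the members' values was not tested. Correlations of the members' log2 ratios between lines ran from 0.27 to 0.73.

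NDUFA13, an accessory subunit of complex I also known as GRIM-19, had 82.8, 134, 108 and 102 CPM with DMSO and 151, 179, 185 and 218 CPM with toceranib. Every toceranib value lay above every DMSO value. It rose by 0.79 ± 0.16 (SE) on the log2 scale, with an adjusted p of 0.0229 in edgeR. ATP5MC2 had 176, 245, 202 and 259 CPM with DMSO and 138, 108, 149.7 and 157 CPM with toceranib. All 4 toceranib values were below all DMSO values, and it fell by 0.67 ± 0.16 (SE), with an adjusted p of 0.0361 in edgeR. The other genes for subunit c did not pass, with log2 fold changes of -0.12 ± 0.24 for ATP5MC1 and 0.25 ± 0.19 for ATP5MC3. Besides NDUFA13, NDUFB5 and NDUFA4 were higher in 4 of 4 lines, 4.41% of members against 15.2% of all genes, and ATP5MC2, NDUFV3 and UQCRC2 were lower in 4 of 4 (4.41%, against 14.7%).

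The call on ATP5MC2 ended without the toceranib library of KU-cHCC-002 or that of KU-cHCC-005, without the pair of KU-cHCC-004 and KU-cHCC-005, in the fit of the 8 toceranib and DMSO libraries, and without the block. In each of these fits edgeR called 0 members lower, against 0 to 1.13% of all genes. DESeq2 with the block called 1 (1.47%, against 6.45%). NDUFA13 was still called without the toceranib library of KU-cHCC-002. The other 4 of those fits called 0 members higher, against 0 to 0.735% of all genes, and DESeq2 called 4 (5.88%, against 9.18%). Without line KU-cHCC-001 altogether, 4 members were lower (5.88%, against 8.41% of all genes) and 2 higher (2.94%, against 12.1%). Without any of the other lines 0 members were called in either direction, against 0 to 0.0387% of all genes. In the same comparison the mitochondrial genome's 13 subunit genes had a median of 0.92, with ND2 called higher in edgeR and 12 of them in DESeq2. The 12 other than COX1 took 3.95% of counts in KU-cHCC-001 and 7.93 to 8.90% in the other lines, and 6.50 to 7.38% in the DPBS libraries. The median of the 13 genes was 0.96 for DPBS against DMSO and 0.02 for toceranib against DPBS, where edgeR called 0. Their higher level against DMSO thus had no counterpart against DPBS. Of the assembly genes, DMAC2 of complex I (-0.81 ± 0.22, SE) and COX10 of complex IV (-1.05 ± 0.22), which makes haem for that complex, fell, and the other assembly, carrier and regulator genes were not called in edgeR. DESeq2 called 1 further complex II assembly gene and 2 carrier genes lower.

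Sorafenib was also set directly against toceranib. The vehicles differ there too, DMSO for sorafenib and DPBS for toceranib, so drug and vehicle cannot be told apart. Sorafenib gave lower values for 15 members (22.1%, against 20.1% of all genes) and higher values for 0 (18.3% of all genes) in edgeR. The share lower was close to that of all genes, and the median was -0.19. DESeq2 called 19 lower (27.9%, against 22.8%) and 2 higher (2.94%, against 19.5%). Complex I supplied 10 of the 15: NDUFA1, NDUFA2, NDUFA13, NDUFB1, NDUFB3, NDUFB5, NDUFB11, NDUFC2, NDUFS5 and NDUFS7. The others were SDHA of complex II, COX4I1 and NDUFA4 of complex IV, and ATP5J2 and ATP5MC3 of complex V. NDUFB5 had 71.6, 71.6, 80.5 and 83.2 CPM with toceranib, so that its 2 drug groups lay on either side of DMSO, and the difference of -1.19 ± 0.15 (SE) had an adjusted p of 3.79e-04 in edgeR. NDUFA13 differed by -1.03 ± 0.16 (adjusted p 8.82e-04 in edgeR), with sorafenib values of 57.5, 109, 92.2 and 109 CPM, near those of DMSO. For NDUFA2, NDUFB1, SDHA, ATP5J2 and ATP5MC3 the toceranib values overlapped those of DMSO and the differences between drugs were -1.14, -1.05, -0.79, -0.88 and -1.03.

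Members called between the drugs but not against DMSO differed in which drug lay apart from DMSO. NDUFA4 had 83.9, 79.4, 52.8 and 119.8 CPM with DMSO, 51.6, 82.1, 70.3 and 123 CPM with sorafenib and 105, 120.2, 119 and 160.2 CPM with toceranib. Its sorafenib and DMSO ranges nearly coincided, and the toceranib values were the highest in each line. NDUFA1, a small membrane-arm subunit, had 15.3, 30.6, 21.0 and 47.2 CPM, 11.2, 21.5, 21.0 and 51.7 CPM and 33.6, 30.0, 40.8 and 66.8 CPM with DMSO, sorafenib and toceranib. COX4I1 stood at 288, 361, 417 and 399.6 CPM with toceranib, above DMSO in 3 of 4 lines. Differences between the drugs were -0.67 ± 0.19 (SE) for NDUFA4, -0.86 ± 0.22 for NDUFA1 and -0.43 ± 0.15 for COX4I1. NDUFS7, a core iron-sulphur subunit, and NDUFS5, NDUFB3 and NDUFC2, accessory subunits, differed by -0.76, -0.61, -0.65 and -0.65, and for NDUFS5 and NDUFS7 it was sorafenib that lay lower than DMSO, by -0.68 ± 0.22 and -0.54 ± 0.18 (SE) with adjusted p of 0.0501 and 0.0550 in edgeR. Without the toceranib library of KU-cHCC-002 the number lower was 27 (39.7%, against 16.7% of all genes), and without those of KU-cHCC-004 and KU-cHCC-005 it was 5 (7.35%, against 8.7%). Without line KU-cHCC-001 it was 11 (16.2%, against 24.4%), with 7 higher (10.3%, against 21.1%).

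The DPBS comparisons count 4 libraries that form 2 pairs, so their p-values rest on fewer independent sources than libraries, and line and vehicle cannot be told apart in them. Against its own vehicle, toceranib gave 0 called members in edgeR, as over all 15515 genes (0%). At an unadjusted p under 0.05 there were 5 members, against 1374 of all genes, and DESeq2 called 0 members. The median log2 fold change was 0.28 over the members and 0.05 over all genes, and 6 of 68 members were below 0 (8.82%, against 45.3% of all genes). DPBS against DMSO likewise had 0 members called, against 0.709% of genes lower and 0.986% higher (110 and 153 genes, or 50 and 210 when scaled by total counts). Of the members 60 of 68 were below 0 (88.2%, against 55.6% of all genes), with a median of -0.34, against -0.08 over all genes. At an unadjusted p under 0.05 in edgeR there were 13 members, against 3016 of all 15515 genes. DESeq2 called 5 members lower (7.35%, against 3.46% of all genes), and leaving out the libraries labelled KU-cHCC-001 gave 9 lower in edgeR (13.2%, against 4.11%). With each pair of DPBS libraries summed into 1, edgeR called 0 members (7 at an unadjusted p under 0.05) and 0 of all genes, at a median of -0.35. UQCRC1 had 264, 339, 335 and 257 CPM with DMSO and 167, 172, 167 and 191 CPM in the DPBS libraries, all below the lowest DMSO value (log2 fold change -0.78 ± 0.19 SE, adjusted p 0.0511 in edgeR). CYC1 had 197, 292, 261 and 260.2 CPM and 140.2, 125, 134 and 130.2 CPM, and ATP5MC2 173, 252, 203 and 261 CPM and 151, 138, 140.0 and 131 CPM. For ATP5MC2 the DPBS values lay within the range with toceranib, which was 137, 107, 152 and 158 CPM on this scale, so its toceranib call against DMSO had no counterpart against DPBS (-0.01 ± 0.17 SE). NDUFA13 differed from DPBS by 0.68 ± 0.23 (adjusted p 0.474 in edgeR), with 97.0, 141, 94.3 and 129 CPM in the DPBS libraries.

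The members also differed between the lines themselves. A test of the 3 line terms over the 12 DMSO, sorafenib and toceranib libraries called 17 of 68 members (25%), below the 42.1% of all genes. By complex the 17 were 10 of complex I, 2 of complex III, 3 of complex IV and 2 of complex V. KU-cHCC-001, the line with high VIM and low KRT7, had the lowest mean for 56 of the 68 members and for 15 of the 17 called, and KU-cHCC-005 the highest for 40 and 9. Its summed CPM of all members with DMSO was 8238, against 10332 to 12726 in the other lines.

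UQCRQ, a small subunit of complex III, had the widest range between lines, 3.35-fold. It had 49.0, 197, 141 and 171 CPM with DMSO and 50.0, 96.8, 177 and 178 CPM with toceranib, with KU-cHCC-001 lowest under each treatment. NDUFA9, an accessory subunit near the junction of the arms of complex I, was the exception to that order: KU-cHCC-001 had 309 CPM with DMSO and the other lines 102, 108 and 131 CPM. NDUFA9 was highest in KU-cHCC-001 with each drug as well, and its line means spanned 3.02-fold (adjusted p 5.66e-05 in edgeR). NDUFA9 was at 104 CPM in the library labelled KU-cHCC-001 with DPBS, near the level of the other lines with DMSO. NDUFA1 was lowest in KU-cHCC-001 and highest in KU-cHCC-005, with means that spanned 2.99-fold, and ATP5MC3 spanned 2.84-fold, with KU-cHCC-001 again lowest. NDUFB6, of the membrane arm, had 31.7, 33.6, 63.8 and 77.9 CPM with DMSO, low in KU-cHCC-001 as in KU-cHCC-002 and high in the other lines, and spanned 2.45-fold. The number called depended on the treatments in the fit: 52 members without toceranib, 4 without DMSO and 3 without sorafenib. The shares of all genes called in these fits were not computed, so these counts cannot be read as particular to the members.

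**Figure D5:**
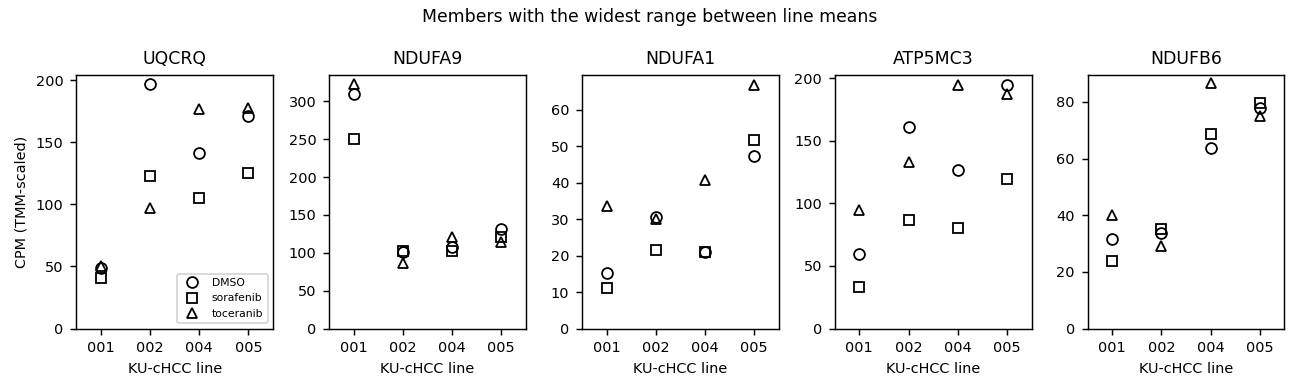
CPM of the 5 members with the widest range between line means, by line; symbols are the 3 treatments, 1 library each, with the vertical axis starting at 0. KU-cHCC-001 is lowest for UQCRQ and ATP5MC3 and highest for NDUFA9, at 250.3 to 323.7 CPM against 86.8 to 131.2 CPM in the other lines.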

How the data were processed

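For each of the 16 libraries the authors deposited unnormalized counts by gene symbol. The submitters' processing notes name TopHat. Not given in the sources used here are its version, the counting tool with its strand and multi-mapping settings, the build and the gene models. Several members have processed pseudogenes, so how their reads were shared is uncertain, and no coordinates are printed. Of 39954 entries, the 500 that shared 89 symbols were summed, which gave 39543 symbols.

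The 12 DMSO, sorafenib and toceranib libraries were fitted with edgeR 4.0.16 (limma 3.58.1, R 4.3.3): filterByExpr by treatment (14938 genes, all 68 members among them), TMM scaling, and robust quasi-likelihood tests with treatment and line as terms (6 residual degrees of freedom, common dispersion 0.0807). The Benjamini-Hochberg adjustment ran over all genes tested, and a gene was called at an adjusted p under 0.05. CPM of members are counts over TMM-scaled library sizes, and those of other genes over total counts. Toceranib against DPBS and DPBS against DMSO came from a fit of all 16 libraries with no line term (15515 genes, 12 residual degrees of freedom), because 3 of the 4 DPBS labels are in doubt. The fit was tested on simulated counts.

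The line pairs the libraries by the labels. Deviations from the treatment means correlated at 0.75 to 0.89 for DMSO with sorafenib of a line and at 0.56 to 0.80 for DMSO with toceranib. Each library correlated best with its own line.

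Members named with values are those called in a drug comparison, 15 fixed genes (NDUFS1, NDUFV1, SDHA to SDHD, UQCRC1, UQCRFS1, CYC1, COX4I1, COX5A, COX7A2L, ATP5F1A, ATP5F1B and ATP5IF1), the isoforms of complex IV, and the 5 with the widest range between lines. UQCR11, NDUFV2, COX5B, ATP5MC1 and the genes for which a count names every member were added with their values known. 1 member called with sorafenib is counted throughout but is not reported here by itself. The members, lists and rules were chosen with earlier results of these data known. Alternatives covered scaling, the low-count filter, DESeq2 1.42.0, the libraries in the fit, the line term and leaving out lines or libraries.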

Additional observations from a re-analysis of the deposited data

Results flagged for a closer look

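Among 117 groups of 4 libraries examined (the named members and the summed level of each complex, by treatment), 8 had 1 library whose gap to the nearest of the others exceeded the 95% limit of Dixon's test for its range. For independent groups not chosen by their values, chance would mark about 1 in 20. Here some named members were chosen from these data, NDUFA9 for its wide range between lines, and the groups of a gene share the same lines. That rate therefore does not hold for these groups. NDUFA9 stood apart in KU-cHCC-001 with all 3 treatments, at 309.3 CPM with DMSO, 250.3 CPM with sorafenib and 323.7 CPM with toceranib, against 86.8 to 131.2 CPM in the other lines. COX5A was high in KU-cHCC-002 with DMSO, at 422.0 CPM against 217.6 to 232.7 CPM, and low in KU-cHCC-005 with toceranib, at 195.9 CPM against 226.7 to 231.1 CPM. CYC1 was high in KU-cHCC-001 with toceranib, at 341.9 CPM against 156.4 to 178.0 CPM in the other lines, and that library also held CD74 at 346.5 CPM. With sorafenib, KU-cHCC-001 had the lowest summed level of complex II, 315.7 CPM against 472.6 to 490.8 CPM, and of complex III, 735.2 CPM against 1180.1 to 1209.6 CPM.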

How the results depend on the processing

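Of 272 recomputed answers (counts of members called, medians, levels per complex and counts over lines), 224 stayed within the spread or within 1.5 times the reported count, and 48 moved. The 2 fits that left out toceranib libraries of KU-cHCC-002, or of KU-cHCC-004 and KU-cHCC-005, were added after seeing the data, as were the fits without COX1 and with the DPBS libraries summed in 2 pairs, in which the counts of members called were those reported. The causes of these changes were not tested.

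With sorafenib against DMSO, the 10 members lower became 26 when only these 2 groups were fitted (with 1 higher), 17 without the toceranib library of KU-cHCC-002, and 1 to 9 when a line was left out. With no replicate block the numbers lower were 0 for sorafenib against DMSO (1.59% of all genes) and 0 for toceranib against DMSO (0% of all genes). For sorafenib against toceranib 5 were lower (7.35%, against 7.01%), and 0 were higher for toceranib against DMSO (0% of all genes). The median over members stayed between -0.32 and -0.20 without a line.

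For toceranib against DMSO the reported calls were 1 lower and 1 higher. The number lower was 0 with only the 2 groups, 0 without the toceranib library of KU-cHCC-005, 0 without that of KU-cHCC-002, 0 without those of KU-cHCC-004 and KU-cHCC-005, and 0 to 4 without a line. The number higher was 2 with RLE size factors (2.94%, against 4.47% of all genes), 2 with total counts (2.94%, against 4.93%) and 4 with DESeq2 (5.88%, against 9.18%). It was 0 with only the 2 groups, 0 without the toceranib library of KU-cHCC-005 or the pair of KU-cHCC-004 and KU-cHCC-005, and 0 to 2 without a line. In the fits with 0 members lower, 0 to 1.13% of all genes were lower, and in those with 0 members higher, 0 to 0.735% were higher. The members' median for toceranib against DMSO, -0.07, took both signs, from -0.19 to 0.15, when a line was left out. For sorafenib against toceranib the 15 lower became 27 without the toceranib library of KU-cHCC-002, 5 without those of KU-cHCC-004 and KU-cHCC-005, and 6 to 21 without a line. The number higher, 0 as reported, was 2 with total counts (2.94%, against 18.7% of all genes) and 1 with no low-count filter (1.47%, against 10.3%). It was 2 with DESeq2 (2.94%, against 19.5%) and 0 to 7 without a line, the 7 without KU-cHCC-001 (10.3%, against 21.1%).

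In the 16-library fits, DPBS against DMSO had 2 members lower with the labelled line as a replicate block (2.94%, against 1.72% of all genes). It had 5 with DESeq2 (7.35%, against 3.46%) and 0 to 9 without a line, the 9 without KU-cHCC-001 (13.2%, against 4.11%). Its median of -0.34 was -0.22 with total counts and -0.47 to -0.24 without a line, and that of toceranib against DPBS, 0.28, was 0.17 to 0.37 without a line. Members differing between lines numbered 4 without DMSO, 3 without sorafenib and 52 without toceranib, against 17, with the shares of all genes in these fits not computed. The mean log2 ratio of the summed level of complex II with sorafenib was -0.025 without SDHA, against -0.26. With total counts, 6 members were higher in 4 of 4 lines for sorafenib and 6 for toceranib, against 3 each. In the named members, 1281 values kept sign and side of the threshold, 116 lost the call and 35 gained it, and 56 uncalled values changed sign.

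With 1 library per line and treatment there is no measure of spread within a line. Intervals from counts alone would understate the error, since they would leave out that spread. The planned search of promoters for motifs was not run.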
